A study of Mus musculus with 8 samples.

Results

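The genes described here are 33 genes of amino acid synthesis, amino acid transport and tRNA charging. They were chosen by name for these functions, with earlier results of these data known, and matched by Ensembl gene ID to GRCm38 gene symbols. All 33 were found among the 55487 genes of the table and all 33 passed the filter on low counts, which left 15056 genes for testing. They were measured by mRNA sequencing of whole sciatic nerve, the large mixed nerve of the hind limb, taken at postnatal day 6, when Schwann cells wrap axons in myelin. The groups compared were 4 CNP-Cdk7cKO libraries of genotype CNPcre/+ Cdk7lox/lox, and 4 Ctrl libraries of genotype CNP+/+ Cdk7lox/lox. Both groups carry 2 floxed alleles of Cdk7, the kinase of transcription factor TFIIH that phosphorylates RNA polymerase II and also activates cell cycle kinases. The CNP-Cdk7cKO group also carries a Cre knocked in at 1 Cnp allele. In nerve this Cre acts mainly in Schwann cells, and both the loss of Cdk7 and the changed Cnp dose separate the groups. The RNA came from every cell of the nerve, and the labels name no animals behind the libraries. The p-values therefore rest on library-to-library spread, which may be technical.

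Cells obtain amino acids by making them and by importing them, and each amino acid is joined to its tRNA by an aminoacyl-tRNA synthetase before a ribosome can use it. Many of these genes are known targets of Atf4, a transcription factor of the integrated stress response whose translation increases when uncharged tRNA activates the kinase Gcn2. In peripheral nerve, myelinating Schwann cells make large amounts of protein and lipid, and inherited variants of several tRNA synthetases, Gars and Yars among them, cause the peripheral neuropathy Charcot-Marie-Tooth disease in people.

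The libraries held 16897242 to 21527891 estimated counts. The deleted gene and the Cre locus followed the labels: Cdk7 averaged 11.6 ± 1.35 CPM (counts scaled to a common library size) in CNP-Cdk7cKO and 21.5 ± 0.696 CPM in Ctrl, and Cnp averaged 1389 ± 61.6 CPM in CNP-Cdk7cKO and 3134 ± 137 CPM in Ctrl (SD, n = 4 each). The groups also differed in sex: the X-inactivation RNA Xist had 280.6 to 331.1 CPM in the CNP-Cdk7cKO libraries and 305.1 CPM in Ctrl 1, against at most 0.1034 CPM in Ctrl 2, 3 and 4. Summed Y-linked RNA was at 94.35 to 107.3 CPM in Ctrl 2, 3 and 4, and at most 0.1963 CPM in the other libraries. The only comparison within a sex was therefore 4 female CNP-Cdk7cKO libraries against the 1 female Ctrl library. Cell type markers differed too. The 12 skeletal muscle markers were all called lower, with summed levels of 105.7 to 586 CPM in CNP-Cdk7cKO and 532.7 to 5068 CPM in Ctrl. The 8 Schwann cell markers summed to 77010 to 85080 CPM in CNP-Cdk7cKO and 105100 to 117600 CPM in Ctrl, with 5 called lower. Of 10 macrophage markers 5 were called higher (488 to 583.3 CPM in CNP-Cdk7cKO, 404.6 to 504 CPM in Ctrl), and of 7 fibroblast markers 2 were called higher (45190 to 51350 CPM in CNP-Cdk7cKO, 39390 to 44780 CPM in Ctrl). No marker on these lists was at 0 in all libraries. In whole nerve, fewer cells of a type and less RNA per cell cannot be told apart, and the part of sex and of cell type make-up in the results was not tested beyond the values given beside them.

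Of the 33 genes, 9 (27.3%) changed between the groups, where 11.7% of all genes tested did. Because the list was chosen with earlier results of these data known, its shares describe the list and are no test of enrichment. A gene was called changed at a Benjamini-Hochberg adjusted p under 0.05 in edgeR's quasi-likelihood test. Higher in CNP-Cdk7cKO were 7 genes, Ass1, Slc7a5, Slc1a5, Gars, Wars, Aldh18a1 and Eprs (5.07% of all genes were called higher), and lower were 2, Mthfd1l and Slc38a2 (6.60% of all genes were called lower). Ass1 changed by 5.21-fold, while the other 8 called genes changed by less than 1.5-fold. The median log2 fold change was 0.07 over the 33 genes and 0.0031 over all genes tested, with 25 of the 33 values above 0. The called genes fell in each of the 3 roles, with 3 of 13 in synthesis, 3 of 9 in transport and 3 of 11 in tRNA charging. In 11 of the 33 (33.3%), the 4 CNP-Cdk7cKO values and the 4 Ctrl values did not overlap, where 18.8% of all genes did so. These were the 9 called genes with Shmt2 and Cars.

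**Figure D1:**
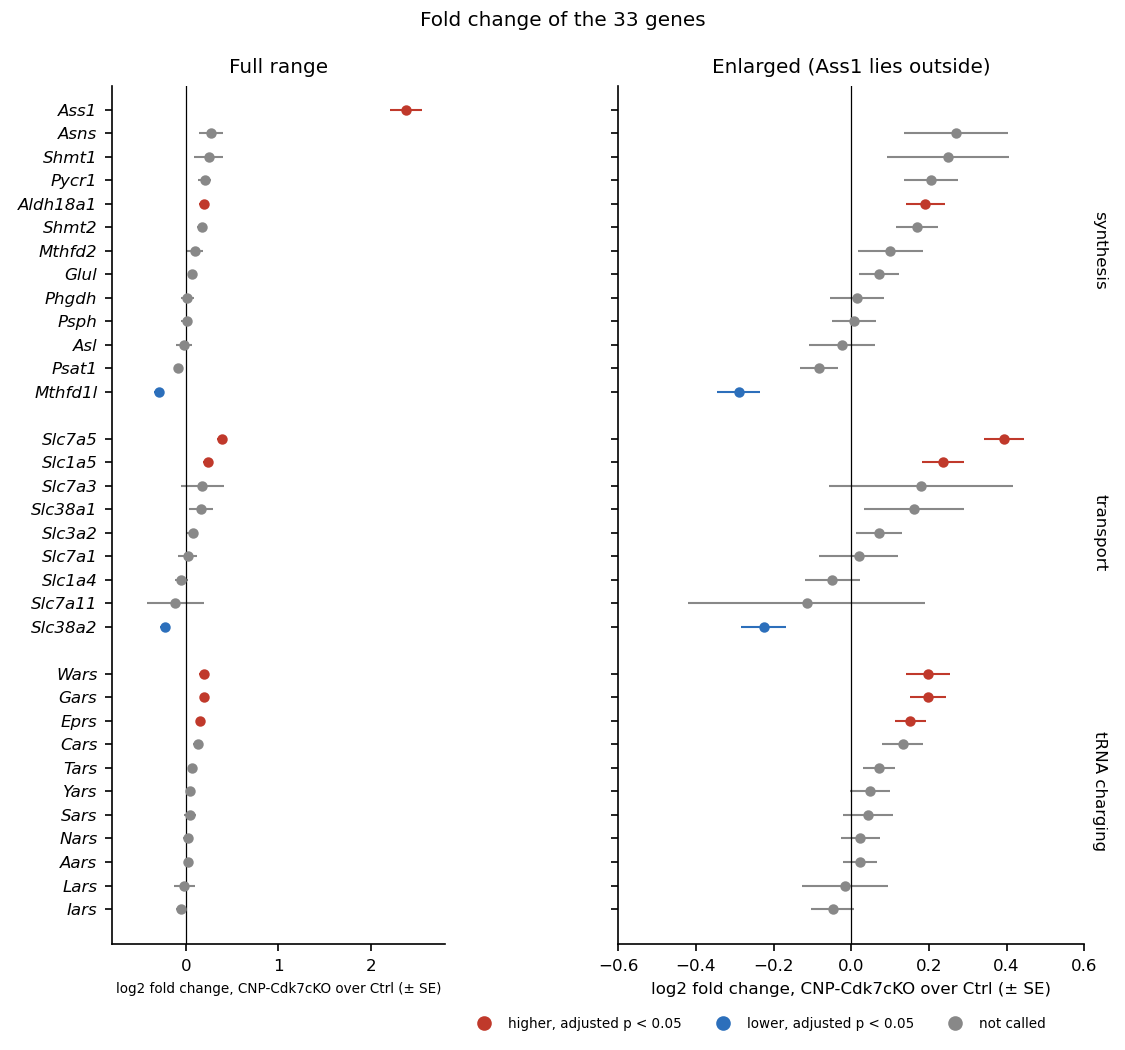
The log2 fold change of CNP-Cdk7cKO over Ctrl is plotted for each of the 33 genes, grouped by role, with bars of 1 standard error; the left panel holds the full range and the right panel enlarges -0.6 to 0.6. Ass1 stands at 2.38, every other gene lies between -0.29 and 0.39, and the 9 coloured points are the called genes.

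The calls were also counted in fits that take up sex or muscle RNA. With Xist as a covariate 1 of the 33 genes was called, Ass1, where 1.55% of all genes were. In the female libraries alone 1 was again called, Ass1, where 0.718% of all genes were. With the mean log2 level of the skeletal muscle markers as a covariate Ass1 was also the 1 gene called, where 1.83% of all genes were. The direction of all 9 called genes was the same in each of these 3 fits. In all 9 the groups did not overlap, so Ctrl 1 already lay outside the CNP-Cdk7cKO range. Their direction in the female libraries alone was therefore fixed in advance. The Xist fit gave nearly the same values, as for Ass1 (2.57 with Xist, 2.58 in the female libraries), and is no separate check. The standard error of the 33 genes grew by a median of 1.63 times with the Xist covariate.

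**Figure D2:**
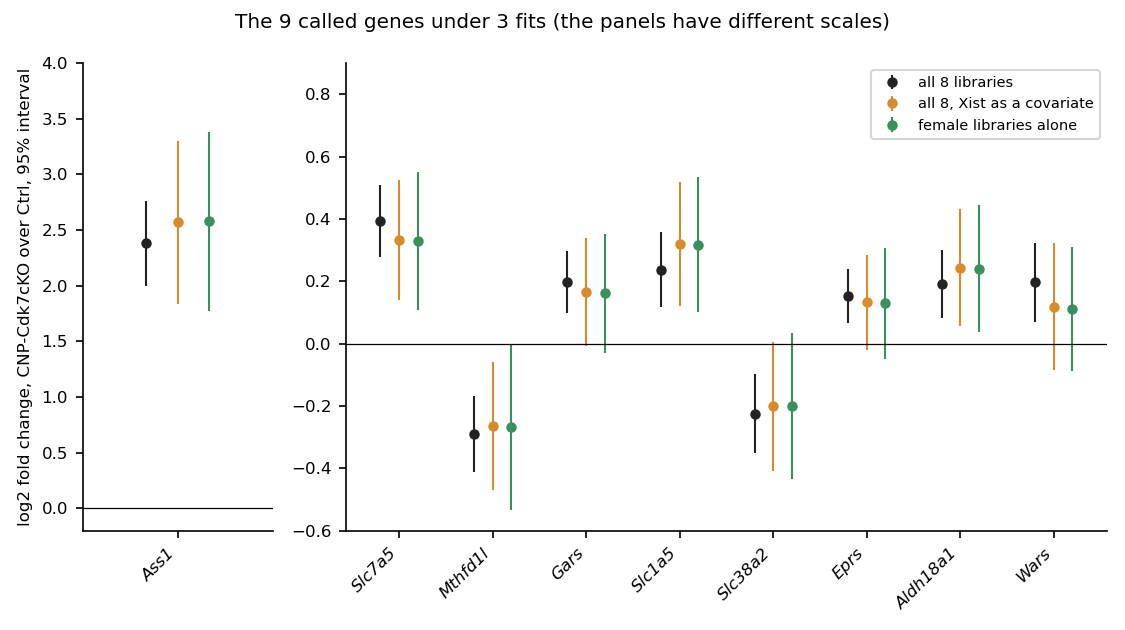
The log2 fold change of CNP-Cdk7cKO over Ctrl of each called gene is shown with its 95% interval from 3 fits, on 1 scale for Ass1 and another for the remaining 8. The intervals widen with the Xist covariate and in the female libraries, while each of the 9 values keeps its sign. Ctrl 1 lies outside the CNP-Cdk7cKO range for all 9 genes, so the sign in the female libraries was fixed in advance. The Xist fit is no separate check of it.

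Ass1, which joins citrulline to aspartate in the step before arginine is made, rose most of the 33 genes. The gene lies on chromosome 2 at 31470207 to 31520672 on the plus strand (GRCm38), and was at 16.2, 17.9, 10.2 and 15.8 CPM in CNP-Cdk7cKO 1 to 4, against 2.51, 3.05, 3.10 and 2.83 CPM in Ctrl 1 to 4. The groups did not overlap, and the lowest CNP-Cdk7cKO library, the third, was still more than 3 times the highest Ctrl library. The mean was 15.02 ± 3.33 CPM in CNP-Cdk7cKO and 2.87 ± 0.268 CPM in Ctrl (SD, n = 4 each), a 5.21-fold difference with a 95% interval of 3.99 to 6.80 (2.38 ± 0.17 SE on the log2 scale, adjusted p = 4.25e-05 in edgeR's test). It was as large in the female libraries alone, at 2.58 with an interval of 1.78 to 3.38 and an adjusted p of 0.0185 from edgeR. The Xist covariate gave 2.57 and the muscle marker covariate 2.81. Leaving out any 1 library gave 2.29 to 2.53, with the call kept in all 8 cases. Per kilobase of transcript, Ass1 stood 23rd of the 33 genes in CNP-Cdk7cKO, at 8.86 CPM per kb, and 29th in Ctrl, at 1.69 CPM per kb.

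**Figure D3:**
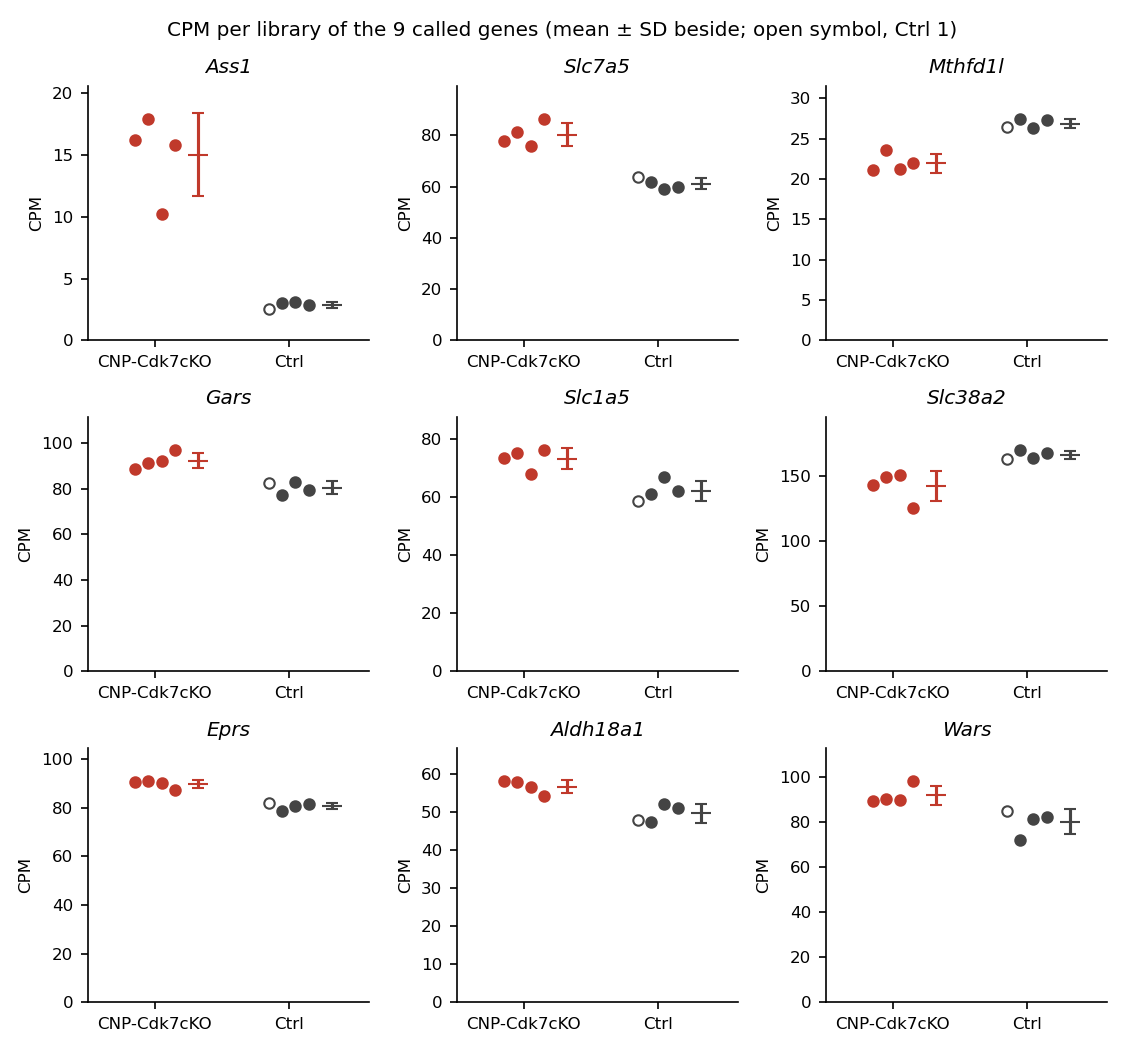
CPM of the 9 called genes are plotted per library, CNP-Cdk7cKO on the left and Ctrl on the right, with the mean ± SD beside each group and each axis starting at 0; the open symbol is Ctrl 1, the female Ctrl library. Ass1 lies at 10.2 to 17.9 CPM in CNP-Cdk7cKO and 2.51 to 3.10 CPM in Ctrl, and in none of the 9 panels do the groups overlap.

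Asl, which splits the product of Ass1 into arginine and fumarate, was at 16.8, 15.8, 15.9 and 17.9 CPM in CNP-Cdk7cKO, against 18.2, 15.9, 18.4 and 14.97 CPM in Ctrl. The groups overlapped, with a log2 fold change of -0.02 and a 95% interval of -0.21 to 0.16 (edgeR adjusted p = 0.894). The 2 enzymes act in succession in arginine synthesis, and the interval of Ass1 lies above that of Asl. On the scale of mean CPM per kb, Ass1 was above Asl in CNP-Cdk7cKO (8.86 and 6.87) and below it in Ctrl (1.69 and 6.99). In the single library CNP-Cdk7cKO 3, Ass1 was below Asl on this scale.

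Of the remaining genes of arginine use, listed with polyamine synthesis as 10 genes of which 7 could be tested, 1 was called. Gatm, which takes arginine into creatine synthesis, fell to 388 ± 47.6 CPM in CNP-Cdk7cKO, against 496 ± 32.2 CPM in Ctrl (log2 fold change -0.35 ± 0.08 SE, edgeR adjusted p = 0.0191), and the call was lost without Ctrl 2 (edgeR adjusted p = 0.0555). The arginine users below were chosen after their values were seen. The nitric oxide synthases Nos1, Nos2 and Nos3 had log2 fold changes of -0.11, -0.43 and -0.03, none called. Arg1, which splits arginine to ornithine, had 0.39 with a 95% interval of -0.19 to 0.97. Odc1, the first enzyme of polyamine synthesis, was at 263 ± 15.7 CPM in CNP-Cdk7cKO and 241 ± 7.56 CPM in Ctrl (edgeR adjusted p = 0.130).

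The promoter of Ass1 and those of 2 genes with an Atf4-type site are shown, since the next results set the stress response beside these genes. RefSeq promoters (GRCm38.p6) of 24 of the 33 genes were at hand, and the 250 bases before each start site were searched on both strands for TGATGNAA, the core of the C/EBP-ATF response element that Atf4 binds, and for CACGTG, the E-box bound by Myc and Usf proteins. The sequences below run from the 5′ to the 3′ end on the strand of the gene, with the match in capitals.
Ass1, chr2:31470020-31470269, plus strand: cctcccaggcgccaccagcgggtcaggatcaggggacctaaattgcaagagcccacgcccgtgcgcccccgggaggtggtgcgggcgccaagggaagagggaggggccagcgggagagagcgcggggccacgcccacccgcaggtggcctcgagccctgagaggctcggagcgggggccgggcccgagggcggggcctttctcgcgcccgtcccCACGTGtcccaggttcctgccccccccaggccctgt
Asns, chr6:7693210-7693459, minus strand: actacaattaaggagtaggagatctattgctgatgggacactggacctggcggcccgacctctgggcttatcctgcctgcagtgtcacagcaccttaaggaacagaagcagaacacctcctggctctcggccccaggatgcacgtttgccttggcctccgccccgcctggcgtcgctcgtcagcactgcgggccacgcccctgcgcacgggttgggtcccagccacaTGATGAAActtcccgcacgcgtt
Gars, chr6:55037751-55038000, plus strand: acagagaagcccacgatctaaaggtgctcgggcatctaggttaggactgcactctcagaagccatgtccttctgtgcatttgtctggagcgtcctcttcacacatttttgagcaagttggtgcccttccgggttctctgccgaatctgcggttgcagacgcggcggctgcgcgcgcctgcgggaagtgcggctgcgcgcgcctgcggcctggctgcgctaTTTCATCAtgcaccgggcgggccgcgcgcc
The Ass1 promoter held CACGTG at 36 to 31 bases before the RefSeq start site and no TGATGNAA. The Asns promoter held TGATGAAA at 23 to 16 bases before its RefSeq start site. The Gars promoter held the same type of site on the other strand, as TTTCATCA, at 30 to 23 bases. GENCODE M21, used for gene positions, places these starts elsewhere: Ass1 at 31470207, Asns (minus strand) at 7693254 and Gars at 55038007. By GENCODE the Ass1 and Asns matches lie inside the gene, and the Gars match lies before it. TGATGNAA was found in 6 of the 24 genes, Aars, Asns, Gars, Pycr1, Slc7a11 and Tars, and in 3.45% of all 32851 RefSeq promoters. Of these 6 genes 1, Gars, was called. The called genes Slc7a5, Slc1a5 and Wars had no promoter at hand and were not searched. The 24 genes had 26 promoters, so counts by gene and shares of all promoters are not the same measure. CACGTG was found in 4 of the 24 genes, Aars, Aldh18a1, Ass1 and Iars, 2 of them called, and in 6.02% of all promoters. A match is a description of the letters in this window.

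Asns, which makes asparagine from aspartate and is a textbook Atf4 target, was at 5.33, 5.22, 4.39 and 6.18 CPM in CNP-Cdk7cKO, against 4.53, 4.29, 4.46 and 4.24 CPM in Ctrl. All CNP-Cdk7cKO libraries but the third lay above the Ctrl libraries. Its log2 fold change was 0.27 with a 95% interval of -0.02 to 0.56 (edgeR adjusted p = 0.227).

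The serine synthesis enzymes, which make serine from a glycolytic intermediate in 3 steps, did not pass the test. Phgdh and Psat1 were among the 4 genes with the highest CPM per kb in both groups. Phgdh, the first enzyme, was at 141, 138, 165 and 168 CPM in CNP-Cdk7cKO, against 159.5, 145, 146 and 155 CPM in Ctrl. Psat1, the second, was at 178, 179, 191 and 186 CPM in CNP-Cdk7cKO, against 194, 181, 204 and 199 CPM in Ctrl. Psph, the last, was at 24.1, 23.8, 24.5 and 26.0 CPM in CNP-Cdk7cKO, against 22.8, 24.0, 25.4 and 25.6 CPM in Ctrl. The groups overlapped for all 3 enzymes. Their log2 fold changes were 0.02 for Phgdh (95% interval -0.14 to 0.17), -0.08 for Psat1 (-0.19 to 0.02) and 0.01 for Psph (-0.12 to 0.13). The exons of Psph share 452 bases with Cct6a on the opposite strand. The library kit keeps strand, but the strand setting of the counting is not given in the sources used here.

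Serine then feeds glycine and the folate-bound carbon units. Mthfd1l, the mitochondrial enzyme that releases formate from folate for export to the cytosol, fell. It was at 21.1, 23.6, 21.2 and 21.9 CPM in CNP-Cdk7cKO, against 26.4, 27.4, 26.3 and 27.4 CPM in Ctrl. All 4 CNP-Cdk7cKO libraries were below all 4 Ctrl libraries. The mean was 21.97 ± 1.17 CPM in CNP-Cdk7cKO and 26.9 ± 0.593 CPM in Ctrl, with a log2 fold change of -0.29 ± 0.06 SE and a 95% interval of -0.41 to -0.17 (edgeR adjusted p = 0.00727). The call held when any 1 library was left out (-0.33 to -0.27). With the Xist covariate the value was -0.26 with an edgeR adjusted p of 0.203, and in the female libraries -0.27 with an adjusted p of 0.395.

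The other enzymes of this route did not pass the test. Shmt2, the mitochondrial enzyme that turns serine into glycine, was at 54.5, 56.8, 60.5 and 63.6 CPM in CNP-Cdk7cKO, against 52.5, 53.6, 51.5 and 51.6 CPM in Ctrl. The groups did not overlap, with a log2 fold change of 0.17 ± 0.05 SE and an edgeR adjusted p of 0.0681, which was 0.0446 without CNP-Cdk7cKO 1. Shmt1, its cytosolic counterpart, whose exons share 184 bases with Smcr8 on the opposite strand, was at 4.54 ± 0.827 CPM in CNP-Cdk7cKO and 3.82 ± 0.255 CPM in Ctrl (log2 fold change 0.25, 95% interval -0.09 to 0.59). Mthfd2, which acts before Mthfd1l in the mitochondrion, was at 13.0, 14.0, 13.6 and 11.5 CPM in CNP-Cdk7cKO, against 12.2, 11.5, 12.6 and 12.3 CPM in Ctrl (log2 fold change 0.10, 95% interval -0.08 to 0.29). Mthfd2 thus overlapped between the groups where Mthfd1l did not. The median log2 fold change of 12 further genes of folate carbon metabolism was 0.17.

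Proline synthesis showed 1 call. Aldh18a1, which turns glutamate into the precursor shared by proline and ornithine, rose, at 58.0, 57.7, 56.5 and 54.2 CPM in CNP-Cdk7cKO, against 47.8, 47.2, 52.1 and 51.1 CPM in Ctrl. The groups lay close without overlapping, and the log2 fold change was 0.19 ± 0.05 SE with a 95% interval of 0.08 to 0.30 (edgeR adjusted p = 0.0304). That call was kept only without CNP-Cdk7cKO 4 or without Ctrl 3, and lost without any of the other 6 libraries, with an adjusted p of up to 0.101. Pycr1, the last enzyme of proline synthesis, was at 30.9, 37.3, 33.8 and 33.4 CPM in CNP-Cdk7cKO, against 31.2, 27.7, 27.7 and 31.1 CPM in Ctrl. Only CNP-Cdk7cKO 1 lay within the Ctrl range, and the log2 fold change of 0.20 ± 0.07 SE did not pass the test (edgeR adjusted p = 0.0842).

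Glul, which makes glutamine from glutamate, was at 197, 199, 191 and 196 CPM in CNP-Cdk7cKO, against 198, 195, 182 and 171 CPM in Ctrl. Its log2 fold change was 0.07 (95% interval -0.04 to 0.18), and the female Ctrl library lay within the CNP-Cdk7cKO range. Of 11 further genes of proline and glutamate metabolism, 1 was called higher and 1 lower. Gpt2, the mitochondrial alanine transaminase, fell to 26.3 ± 1.52 CPM in CNP-Cdk7cKO, against 35.3 ± 2.67 CPM in Ctrl (log2 fold change -0.42 ± 0.07 SE, edgeR adjusted p = 0.00276). Gpt2 was called with the Xist covariate, at -0.51 (edgeR adjusted p = 0.0384), but not with the muscle covariate (-0.49, 0.0609) or in the female libraries (-0.51, 0.0899). Aldh4a1, which breaks proline down to glutamate, rose to 40.4 ± 5.48 CPM in CNP-Cdk7cKO, against 30.7 ± 2.45 CPM in Ctrl (log2 fold change 0.40, edgeR adjusted p = 0.0227). The call of Aldh4a1 was lost with Xist (edgeR adjusted p = 0.345), with muscle (0.219), in the female libraries (0.435) and without CNP-Cdk7cKO 1, CNP-Cdk7cKO 2, Ctrl 3 or Ctrl 4 (up to 0.0667).

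Among the 9 transporters, Slc7a5 and Slc1a5 rose and Slc38a2 fell. Slc7a5, on chromosome 8 at 121881150 to 121907694 on the minus strand, encodes LAT1, which brings in leucine and other large neutral amino acids in exchange for glutamine. It was at 77.6, 81.2, 75.9 and 86.3 CPM in CNP-Cdk7cKO, against 63.8, 61.8, 59.2 and 59.6 CPM in Ctrl. Every CNP-Cdk7cKO library was above every Ctrl library, by at least 12 CPM. The means were 80.2 ± 4.60 CPM in CNP-Cdk7cKO and 61.1 ± 2.13 CPM in Ctrl, a 1.31-fold difference with a 95% interval of 1.21 to 1.42 (log2 fold change 0.39 ± 0.05 SE, edgeR adjusted p = 0.00107). Leaving out any 1 library gave 0.36 to 0.42 and kept the call. The value was 0.33 with the Xist covariate (edgeR adjusted p = 0.0952), 0.37 with the muscle covariate (0.0683) and 0.33 in the female libraries (0.199).

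Slc3a2, the heavy chain that carries LAT1 to the membrane, was at 184, 195, 201 and 227 CPM in CNP-Cdk7cKO, against 194, 189, 194 and 191 CPM in Ctrl. It was the most abundant of the 33 genes per kilobase in both groups, at 111 CPM per kb in CNP-Cdk7cKO and 105 in Ctrl. CNP-Cdk7cKO 4 was high and CNP-Cdk7cKO 1 lay below all Ctrl libraries. On the log2 scale the fold change was 0.07 with a 95% interval of -0.06 to 0.20 (edgeR adjusted p = 0.478).

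Slc1a5 encodes ASCT2, an exchanger that imports glutamine. It was at 73.6, 75.4, 68.2 and 76.3 CPM in CNP-Cdk7cKO, against 58.8, 61.1, 67.0 and 62.1 CPM in Ctrl. CNP-Cdk7cKO 3 and Ctrl 3 nearly met, while the other libraries stood apart. The log2 fold change was 0.24 ± 0.05 SE with a 95% interval of 0.12 to 0.36 (edgeR adjusted p = 0.0187), and the call was lost without CNP-Cdk7cKO 2, Ctrl 1 or Ctrl 2, with an adjusted p of up to 0.0603.

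Slc38a2 encodes SNAT2, a sodium-coupled importer of small neutral amino acids that amino acid shortage is known to induce. It was at 143, 149, 151 and 126 CPM in CNP-Cdk7cKO, against 163, 169.9, 164 and 168 CPM in Ctrl. All CNP-Cdk7cKO libraries were lower than all Ctrl libraries, CNP-Cdk7cKO 4 most of all. The log2 fold change was -0.23 ± 0.06 SE with a 95% interval of -0.35 to -0.10 (edgeR adjusted p = 0.0282), and the call was lost without CNP-Cdk7cKO 1 or without Ctrl 2, 3 or 4, with an adjusted p of up to 0.0805. Slc38a1, a related glutamine importer next to it on chromosome 15, was at 7.31 ± 0.240 CPM in CNP-Cdk7cKO and 6.52 ± 1.11 CPM in Ctrl, with overlapping groups (log2 fold change 0.16, 95% interval -0.12 to 0.45).

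The remaining transporters overlapped between the groups and did not pass the test. Slc7a1, the main importer of arginine and lysine in many cells, was at 21.8, 22.3, 24.7 and 19.9 CPM in CNP-Cdk7cKO, against 17.8, 21.8, 22.7 and 25.0 CPM in Ctrl, where Ctrl 1 was the lowest of all. Its log2 fold change was 0.02 (95% interval -0.20 to 0.24). Slc1a4, a carrier of alanine, serine and cysteine, was at 20.8 ± 1.05 CPM in CNP-Cdk7cKO and 21.5 ± 1.68 CPM in Ctrl. Slc7a3, another arginine carrier, and Slc7a11, the cystine importer and an Atf4 target, had the lowest CPM of the 33 genes. Slc7a3 had 0.946 ± 0.0821 CPM in CNP-Cdk7cKO and 0.830 ± 0.171 CPM in Ctrl, and Slc7a11 had 0.507 ± 0.111 CPM in CNP-Cdk7cKO and 0.545 ± 0.131 CPM in Ctrl. The interval of Slc7a11, -0.78 to 0.56 on the log2 scale, was the widest of the 33 genes.

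Of 27 further amino acid transporters 1 was called. Slc25a13, the mitochondrial aspartate-glutamate carrier that supplies the aspartate Ass1 uses in liver, fell to 9.60 ± 1.33 CPM in CNP-Cdk7cKO, against 12.7 ± 0.850 CPM in Ctrl (log2 fold change -0.41, edgeR adjusted p = 0.0336). The call of Slc25a13 was kept only without CNP-Cdk7cKO 4 or without Ctrl 3, and was lost without any of the other 6 libraries (edgeR adjusted p up to 0.0942), with Xist (0.211), with muscle (0.175) and in the female libraries (0.299). Slc7a2, the other arginine carrier of the Slc7a1 type and chosen after its values were seen, had 61.8 ± 3.56 CPM in CNP-Cdk7cKO and 62.1 ± 2.95 CPM in Ctrl.

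Among the 11 cytosolic tRNA synthetases, 3 rose, Gars, Wars and Eprs, each by less than 1.2-fold. None was called lower by edgeR, DESeq2 or limma-voom, or had a lower value at an unadjusted p under 0.05 in edgeR. Gars, which charges glycine, was at 88.6, 91.5, 92.3 and 96.9 CPM in CNP-Cdk7cKO, against 82.4, 77.2, 83.1 and 79.3 CPM in Ctrl. The groups did not overlap, and the log2 fold change was 0.20 ± 0.05 SE with a 95% interval of 0.10 to 0.30 (edgeR adjusted p = 0.0184). The call was lost without Ctrl 2 alone (adjusted p = 0.0642).

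Eprs, a single protein that charges glutamate and proline, was at 90.8, 91.0, 90.1 and 87.2 CPM in CNP-Cdk7cKO, against 81.9, 78.8, 80.9 and 81.5 CPM in Ctrl. Both groups were tight, with a log2 fold change of 0.15 ± 0.04 SE (edgeR adjusted p = 0.0294). Wars, which charges tryptophan and is also known as an interferon-induced gene, was at 89.3, 90.0, 89.6 and 97.9 CPM in CNP-Cdk7cKO, against 84.7, 72.1, 81.1 and 82.1 CPM in Ctrl. Its groups did not overlap, and the log2 fold change was 0.20 ± 0.06 SE (edgeR adjusted p = 0.0484). Both calls were near the threshold. That of Eprs was kept only without CNP-Cdk7cKO 4 and that of Wars only without Ctrl 1. The other 7 omissions in each case lost it, with edgeR adjusted p-values of up to 0.0975 for Eprs and 0.122 for Wars. The log2 fold change stayed at 0.14 to 0.17 for Eprs and 0.15 to 0.23 for Wars over these omissions. Without the filter on low counts neither was called (edgeR adjusted p = 0.0756 for Eprs and 0.0510 for Wars), and with DESeq2's size factors in edgeR Wars was not (0.0517).

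The other 8 synthetases did not pass the test. Cars, for cysteine, was at 36.5, 34.5, 36.3 and 38.2 CPM in CNP-Cdk7cKO, against 31.1, 34.4, 33.4 and 33.6 CPM in Ctrl, with groups that nearly touched (log2 fold change 0.13, edgeR adjusted p = 0.134). Lars, for leucine, varied within both groups, at 52.7, 47.7, 39.7 and 50.3 CPM in CNP-Cdk7cKO, against 37.9, 49.2, 54.2 and 50.9 CPM in Ctrl. The log2 fold changes of Aars (alanine), Iars (isoleucine), Nars (asparagine), Sars (serine), Tars (threonine) and Yars (tyrosine) lay between -0.05 and 0.07, and the groups overlapped for each. Exosc6 lies within Aars and shares 1326 exonic bases on the same strand; it is listed at 0 in all 8 libraries, so reads of the pair cannot be told apart here.

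**Figure D4:**
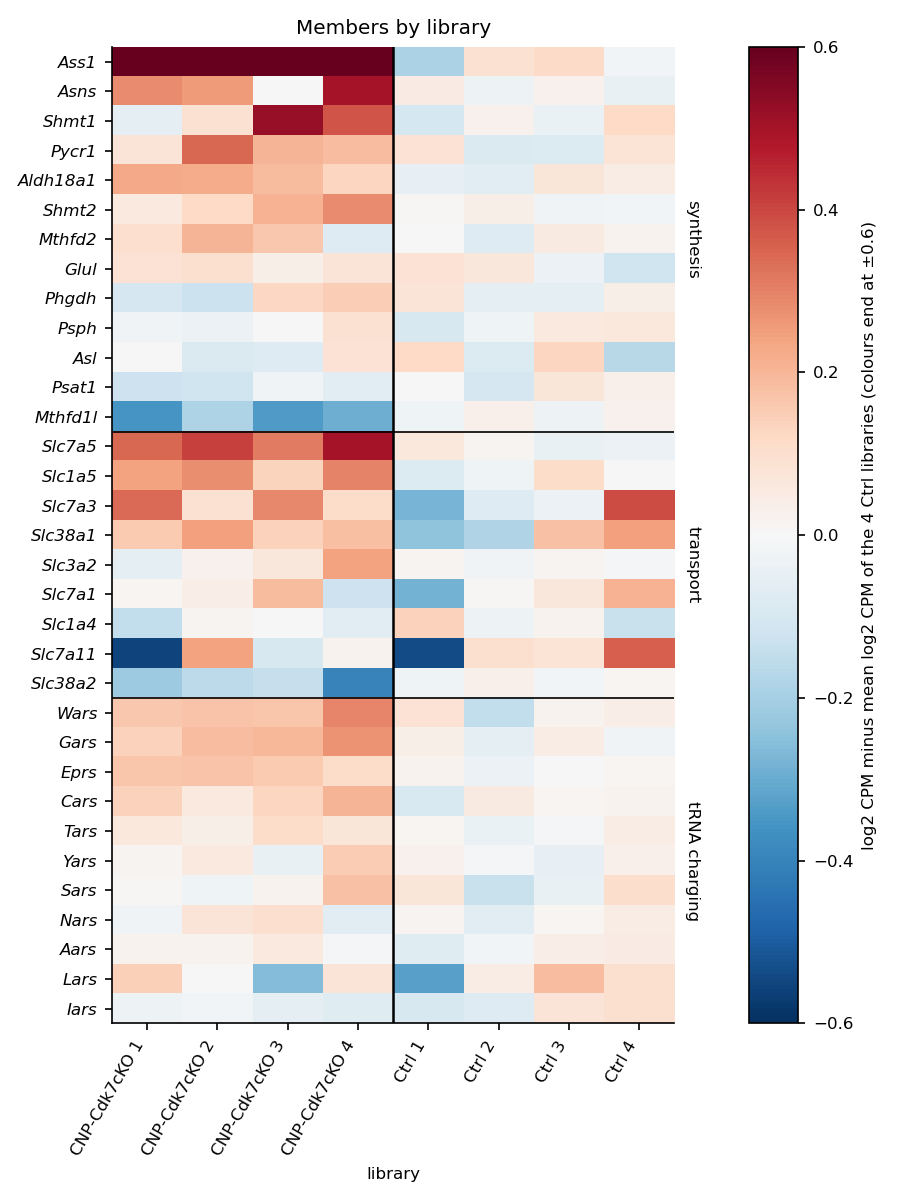
Each cell gives the log2 CPM of a gene in a library minus the mean log2 CPM of that gene in the 4 Ctrl libraries, for the 33 genes by role and the libraries in columns, CNP-Cdk7cKO left of the line; colours end at ±0.6. Ass1 is beyond the scale in all 4 CNP-Cdk7cKO libraries, and Slc7a11, Lars and Slc7a3 vary within groups more than between them.

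Across libraries, the 33 genes varied little within a group. The coefficient of variation over the 4 libraries had a median of 5.73% in CNP-Cdk7cKO (1.68% to 22.1%) and 5.16% in Ctrl (1.22% to 24.0%). Among the CNP-Cdk7cKO libraries the highest value lay in CNP-Cdk7cKO 4 for 13 genes, in CNP-Cdk7cKO 2 for 10, in CNP-Cdk7cKO 3 for 7 and in CNP-Cdk7cKO 1 for 3. Among the Ctrl libraries it lay in Ctrl 4 for 12 genes, in Ctrl 1 for 9, in Ctrl 3 for 8 and in Ctrl 2 for 4.

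Of 120 other genes of amino acid and stress pathways in 8 lists, 115 could be tested, and 9 were called higher and 4 lower. That is 11.3%, near the 11.7% of all genes tested, so the counts below describe single genes. Of the called genes of these lists that are named here, Sesn2 was the 1 called with Xist, with muscle and in the female libraries, and Gpt2 was called with Xist. The rest were called in none of these 3 fits. Among 12 other cytosolic synthetases and their scaffold proteins 2 rose. Vars, for valine, was at 84.1 ± 3.05 CPM in CNP-Cdk7cKO and 73.0 ± 1.5 CPM in Ctrl (log2 fold change 0.21, edgeR adjusted p = 0.0121). Farsb, a subunit of the phenylalanine enzyme, was at 33.9 ± 1.64 CPM in CNP-Cdk7cKO and 29.7 ± 1.19 CPM in Ctrl (log2 fold change 0.19, edgeR adjusted p = 0.0461). Farsb was not called by DESeq2 (adjusted p = 0.0803) or limma-voom (0.0585), nor with DESeq2's size factors in edgeR (0.0517) or without the count filter (0.0814). It was called only without CNP-Cdk7cKO 3 among the 8 fits that leave out a library (up to 0.118). Of the 12 values 11 were above 0, with a median of 0.14.

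The mitochondrial synthetases, which charge tRNA for the ribosomes inside the organelle, had a median log2 fold change of 0.01 over 17 genes. None was called by edgeR, where 1 had an unadjusted p under 0.05, none by DESeq2 and 1 by limma-voom. Lars2 was at 188 ± 21.6 CPM in CNP-Cdk7cKO and 205 ± 28.6 CPM in Ctrl, and Iars2 at 43.2 ± 3.51 CPM in CNP-Cdk7cKO and 44.1 ± 1.13 CPM in Ctrl.

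Of 10 genes of branched-chain and sulfur amino acid metabolism, 9 could be tested and 2 rose. Bcat1 and Bcat2 are the cytosolic and mitochondrial transaminases that begin the breakdown of leucine, isoleucine and valine. Bcat1 was at 13.7 ± 1.69 CPM in CNP-Cdk7cKO and 9.95 ± 1.6 CPM in Ctrl (log2 fold change 0.46, edgeR adjusted p = 0.0428). With Xist the value of Bcat1 was 0.27 (edgeR adjusted p = 0.581) and in the female libraries 0.26 (0.599), and its call was lost without CNP-Cdk7cKO 1, 2 or 4 or Ctrl 2 or 3 (up to 0.113). Bcat2 was at 30.4 ± 0.672 CPM in CNP-Cdk7cKO and 25.7 ± 1.26 CPM in Ctrl (log2 fold change 0.24, edgeR adjusted p = 0.0133), a call that was lost without Ctrl 4 (edgeR adjusted p = 0.0515).

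The integrated stress response list held 21 genes, of which 20 could be tested and 4 rose. Sesn2, a leucine sensor and p53 target, was at 31.2 ± 3.37 CPM in CNP-Cdk7cKO and 8.97 ± 0.509 CPM in Ctrl (log2 fold change 1.80, edgeR adjusted p = 2.18e-06). Gdf15, a stress-induced hormone, was at 0.920 ± 0.154 CPM in CNP-Cdk7cKO and 0.0917 ± 0.0630 CPM in Ctrl. Its Ctrl libraries had 0.122, 0.103, 0.141 and 0 CPM, near the floor. The size of its log2 fold change, 3.26 with a 95% interval of 2.23 to 4.29, is therefore uncertain. Ddit4 and Ppp1r15a had log2 fold changes of 0.41 and 0.25. With Xist as a covariate Sesn2 was called (1.79, edgeR adjusted p = 0.00141), while Gdf15 (2.796, 0.140), Ddit4 (0.22, 0.354) and Ppp1r15a (0.26, 0.153) were not. The other genes of this list given here were chosen after their values were seen. Atf4 mRNA was at 182 ± 8.35 CPM in CNP-Cdk7cKO and 194 ± 7.28 CPM in Ctrl, a log2 fold change of -0.10 with a 95% interval of -0.20 to 0.01 (edgeR adjusted p = 0.218). Ddit3, Trib3 and Chac1, all known Atf4 targets, were not called. Their log2 fold changes were 0.19 (95% interval -0.09 to 0.46), 0.13 (-0.48 to 0.75) and 0.25 (-0.67 to 1.16). Trib3 had means of 1.31 CPM in CNP-Cdk7cKO and 1.18 CPM in Ctrl, and Chac1 of 1.13 and 0.942 CPM. At these low levels the intervals are wide and do not settle whether the 2 genes changed. Atf4 protein was not measured here.

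**Figure D5:**
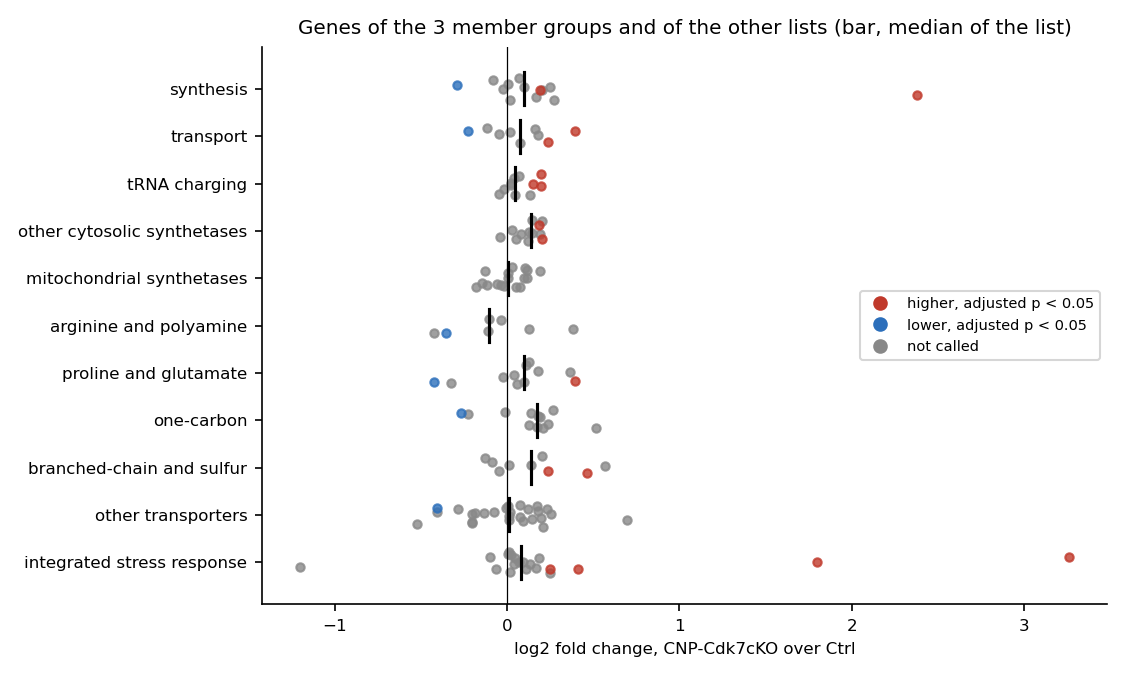
Every tested gene of the 3 roles and of the 8 other lists is a point at its log2 fold change of CNP-Cdk7cKO over Ctrl, with a bar at the median of its list. The medians lie between -0.10 (arginine and polyamine) and 0.17 (folate carbon), and Ass1, Sesn2 and Gdf15 stand at 2.38, 1.80 and 3.26. The value of Gdf15 rests on Ctrl levels near the floor.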

How the data were processed

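Per the labels' protocols, polyA RNA of 8 sciatic nerve samples was made into stranded Illumina libraries. The authors deposited estimated counts per gene, made with STAR and Salmon on GRCm38 per the submitters' processing notes; their versions, the settings and the annotation release: not given in the sources used here. Not whole were 8.29% of the deposited values, which were rounded. Gene positions and lengths came from GENCODE M21 (GRCm38), promoters from RefSeq (GRCm38.p6).

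Genes were kept by filterByExpr (minimum count 10, minimum total 15) and fitted with TMM factors and the quasi-likelihood test of edgeR 4.0.16 (R 4.3.3), adjusted over 15056 genes by Benjamini-Hochberg; 763 genes were called higher and 994 lower. Fold changes are CNP-Cdk7cKO over Ctrl, and CPM use the TMM-scaled library sizes. Other scalings, filters and tools (DESeq2 1.42.0, limma 3.58.1), a replicate block, covariates, a sex-matched fit and leaving out each library were tried. Replicates differed by more than counting noise (chi-square per degree of freedom 3.86 to 17.6), so none was merged.

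The members and lists were chosen with earlier results of these data known. All 33 members, Cdk7 and Cnp may be named; from each other list the up to 4 called genes with the smallest p are named, or the 2 most abundant where none was called. A gene that this rule names is not reported here.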

Additional observations from a re-analysis of the deposited data

Results flagged for a closer look

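Wars in CNP-Cdk7cKO 4, at 97.94 CPM, stood far from the other 3 CNP-Cdk7cKO libraries, which lay at 89.33 to 89.95 CPM: the gap to its nearest neighbour was 0.928 of the range of the group, above the critical value of Dixon's test for 4 samples. It was the 1 such library among 100 gene and group combinations examined, where chance gives about 1 in 20. The Ctrl libraries had 84.71, 72.08, 81.14 and 82.07 CPM of Wars.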

How the results depend on the processing

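Over all genes, the Xist covariate left 73 genes called higher and 160 lower, the muscle covariate 109 and 166, and the female libraries alone 37 and 77; leaving out 1 library gave 470 (without Ctrl 2) to 655 higher and 653 (without Ctrl 2) to 860 lower. Among the 33 genes, members called higher were 4 with the replicate block, 1 with Xist, 1 with muscle and 1 in females, and 2 (without Ctrl 2) to 6 without 1 library; members called lower were 2 with the replicate block, 0 with Xist, 0 with muscle and 0 in females, and 1 to 2 without 1 library. At an unadjusted edgeR p under 0.05, 1 (Xist), 0 (muscle) and 1 (females) were lower. In females the lone Ctrl library is assumed to vary like the others; the cause of these losses was not tested. The labels do not say that replicate numbers pair the libraries. Same-numbered libraries correlated at 0.009 to 0.127 in their deviations from the group means, and libraries of other numbers at -0.156 to 0.168. With these overlapping ranges the check cannot decide whether the numbers pair libraries. The block ended the calls of Aldh18a1, Eprs, Wars, Farsb and Slc25a13 (edgeR adjusted p 0.0635, 0.0675, 0.0508, 0.0777 and 0.0575). Of 559 member values under 17 alternatives 462 kept direction and call, 58 lost the call, 1 gained it and 38 changed sign, none of these in a called gene. The groups of each called gene did not overlap, so its sign could hardly change in the female libraries or without 1 library. Signs changed for Phgdh (limma-voom -0.02, Xist -0.055, muscle -0.104, females -0.065), Psph (limma-voom -0.01), and with Xist, muscle and females for Glul (-0.016, -0.015, -0.016), Slc7a11 (0.472, 0.403, 0.459), Iars (0.051, 0.062, 0.047) and Lars (0.325, 0.251, 0.323); for Sars (Xist -0.018, females -0.028) and Iars2 (muscle 0.017). Without 1 library the ranges were Asl -0.078 to 0.021, Phgdh -0.032 to 0.062, Psph -0.023 to 0.028, Slc7a1 -0.063 to 0.09, Slc7a11 -0.247 to 0.014, Aars 0 to 0.039, Lars -0.111 to 0.062, Nars -0.002 to 0.053, Sars -0.004 to 0.078 and Iars2 -0.087 to 0. Changes in genes near 1 CPM, such as Slc7a3 and Slc7a11, are limited by depth.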
